A study of Mus musculus with 12 samples.

Results

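Expression of 8 genes for cardiac sodium, calcium and pacemaker channel subunits was followed across the 4 groups of a mouse infarction study. The genes were taken by name from the gene column of the deposited transcript table and their transcript rows were summed, which gave 8 of the 33641 gene symbols in the table. Scn4b and Scn4a belong to the sodium channel family, Cacna1c, Cacna1g, Cacna2d1 and Cacnb2 to the calcium channel family, and Hcn2 and Hcn4 to the family of hyperpolarization-activated pacemaker channels. Libraries came from the myocardium of 12 male C57BL/6 wild-type mice, 3 in each group. The groups were sham surgery with vehicle, sham surgery with prednisone, myocardial infarction (MI) surgery with vehicle, and MI surgery with prednisone. Prednisone, a synthetic glucocorticoid, was injected intraperitoneally at 1 mg/kg once a week for 6 weeks at lights-on, starting 2 weeks after surgery, and tissue was collected 24 hours after the last injection. The mice were about 10 weeks old at injection by the protocol and about 16 weeks old by the sample labels. No transgene was used, and which part of the infarcted heart was sampled is not given in the sources used here.

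Voltage-gated sodium channels open at the start of the cardiac action potential and carry its upstroke. Their pore is a large alpha subunit, joined by small beta subunits that adjust gating and placement in the membrane. L-type calcium channels open next, and the calcium that enters through them triggers contraction. They combine a pore subunit with an alpha2delta subunit outside the membrane and a beta subunit inside it, both of which raise the number of channels at the surface. T-type calcium channels open at more negative voltage and HCN channels open on hyperpolarization, and both are best known from the sinoatrial node, the natural pacemaker of the heart.

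On GRCm38 the plus strand holds Scn4b (ENSMUSG00000046480.6) at chr9:45138395-45154152, Cacna2d1 (ENSMUSG00000040118.15) at chr5:15934691-16374511, Cacnb2 (ENSMUSG00000057914.15) at chr2:14603088-14987908, Hcn2 (ENSMUSG00000020331.9) at chr10:79716634-79736108 and Hcn4 (ENSMUSG00000032338.9) at chr9:58823412-58863175. The minus strand holds Scn4a (ENSMUSG00000001027.7) at chr11:106318592-106353288, Cacna1c (ENSMUSG00000051331.15) at chr6:118587240-119196418 and Cacna1g (ENSMUSG00000020866.17) at chr11:94408391-94474198.

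The results turn on how transcripts of Cacna1c and Cacnb2 share sequence, so the junctions that tell them apart are shown first. Transcripts are named as in GENCODE M21 (GRCm38). Cacna1c-223 is a transcript of 2374 bases in 2 exons with no annotated coding sequence, at the 3′ end of the gene (chr6:118592304-118595426, minus strand). Its first exon of 483 bases overlaps no exon of the coding transcripts Cacna1c-212, Cacna1c-207 and Cacna1c-226, and its second exon of 1891 bases starts with the same 300 coding bases as theirs (chr6:118593895-118594194). Below, 40 bases of the preceding exon are in lower case, and the first 100 bases of the shared exon (chr6:118594095-118594194) are in capitals, 5′ to 3′ on the gene's strand.
Cacna1c-223: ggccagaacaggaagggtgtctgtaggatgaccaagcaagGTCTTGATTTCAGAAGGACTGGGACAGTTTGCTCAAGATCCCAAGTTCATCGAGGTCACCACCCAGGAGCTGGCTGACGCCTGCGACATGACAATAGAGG
Cacna1c-212: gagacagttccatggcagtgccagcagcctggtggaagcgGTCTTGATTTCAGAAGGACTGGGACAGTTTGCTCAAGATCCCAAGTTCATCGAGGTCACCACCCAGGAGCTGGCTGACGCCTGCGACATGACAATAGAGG
The capitals are the same in both, so a read that lies within them fits either transcript. Of the bases of Cacna1c-223, 79.7% also lie in exons of Cacna1c-207, 79.0% in those of Cacna1c-226 and 46.9% in those of Cacna1c-212.

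Cacnb2 has a pair of main coding transcripts with separate starts. Cacnb2-203 (chr2:14604306-14987908, plus strand) and Cacnb2-214 (chr2:14824092-14986211, plus strand) share 1764 coding bases. Before these, Cacnb2-203 has 201 coding bases of its own and Cacnb2-214 has 51. Coding bases of the preceding exon are in lower case, 60 for Cacnb2-203 and all 51 for Cacnb2-214, and the first 60 bases of the first shared exon (chr2:14874770-14874829) are in capitals.
Cacnb2-203: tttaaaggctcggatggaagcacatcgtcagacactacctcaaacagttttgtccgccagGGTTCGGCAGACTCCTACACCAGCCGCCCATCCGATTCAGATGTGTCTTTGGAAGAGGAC
Cacnb2-214: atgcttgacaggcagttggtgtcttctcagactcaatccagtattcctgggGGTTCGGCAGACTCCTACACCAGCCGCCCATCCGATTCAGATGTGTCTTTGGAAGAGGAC

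Values are TPM (a library's transcripts scaled to a fixed total after division by transcript length), so that levels of different genes can be set side by side. In sham vehicle hearts the highest mean level was that of Cacna1c, the pore of the L-type calcium channel, at 28.2 ± 2.12 TPM (SD, n = 3). Its alpha2delta partner Cacna2d1 followed at 26.9 ± 1.83 TPM, and the ranges of these genes overlapped. The beta subunit gene Cacnb2 stood at 18.5 ± 1.97 TPM, the sodium channel beta subunit gene Scn4b at 13.8 ± 1.26 TPM and Scn4a, the sodium channel pore best known from skeletal muscle, at 8.99 ± 0.51 TPM. Hcn2 came next at 6.67 ± 1.14 TPM, then the T-type pore gene Cacna1g at 4.45 ± 0.75 TPM and Hcn4, the main HCN gene of the sinoatrial node, at 1.94 ± 0.16 TPM. From Cacna2d1 downwards, the 3 values of each gene, summed over all transcripts, did not overlap those of the next. Over coding transcripts alone, Cacnb2 averaged 14.7 TPM and overlapped Scn4b. Scn4a then averaged 5.14 TPM, below Hcn2 and overlapping it, and Cacna1g averaged 2.03 TPM and overlapped Hcn4.

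The libraries differed in ways that touch every gene. Between 11690 and 14307 genes reached 1 TPM, with the top count in MI vehicle replicate 3, and mitochondrially encoded transcripts took 21.6% to 42.0% of TPM. The median change of all 13158 tested genes on the log2(TPM + 1) scale was 0.39 for MI against sham with vehicle, -0.06 for MI against sham with prednisone, 0.07 for prednisone against vehicle in sham hearts and -0.41 for prednisone against vehicle in MI hearts. Each change given below can be read against these medians. In these bulk samples, fewer cells of a type and less RNA per cell cannot be told apart. Transcripts of 8 ventricular muscle markers summed to between 25348 and 31661 TPM in MI vehicle hearts and between 34986 and 41634 TPM in the other 9 libraries.

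**Figure D1:**
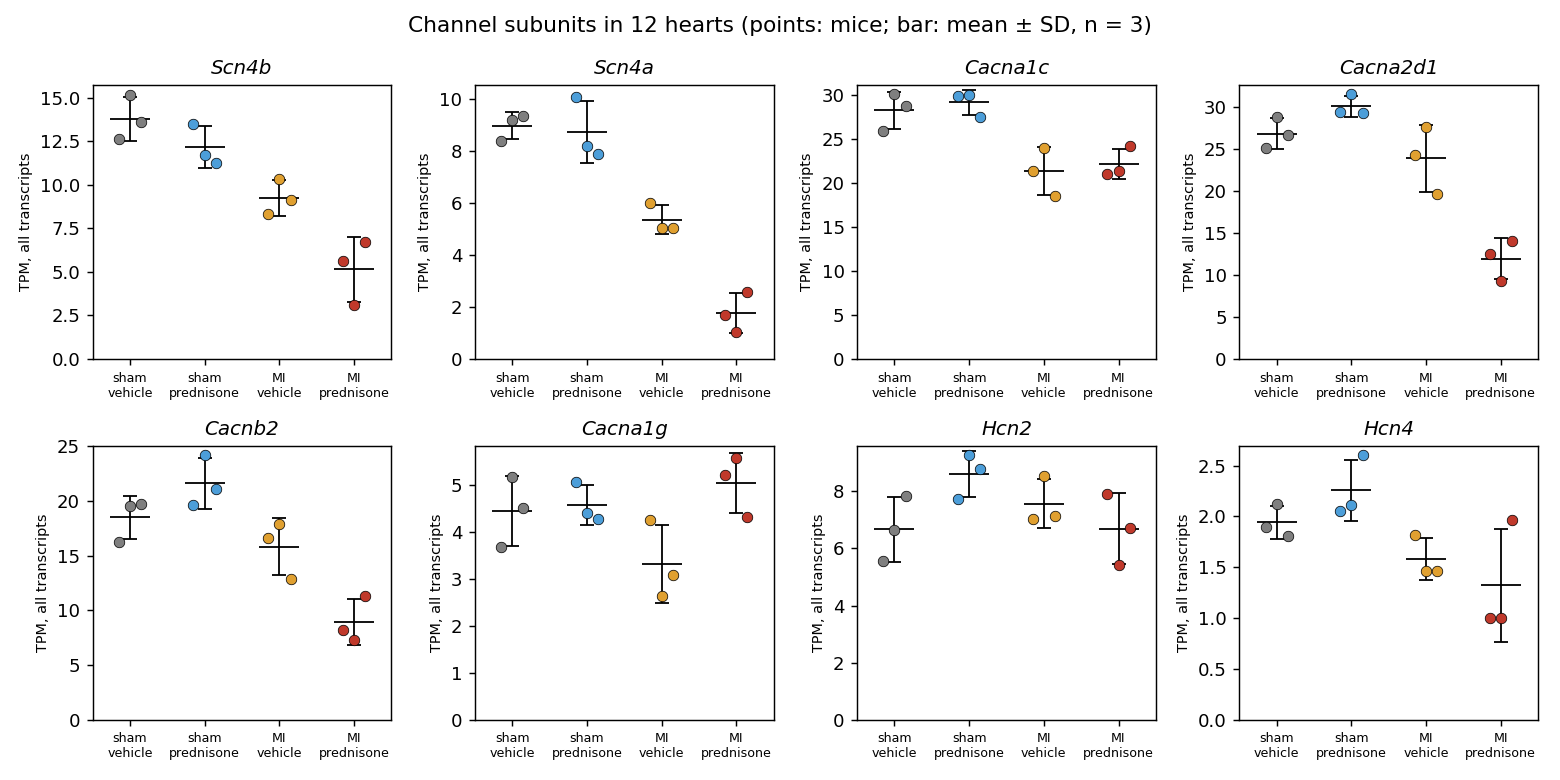
TPM of each channel gene, all transcripts summed, in each of the 12 mice, with the mean and SD of each group (n = 3, y axes start at 0). Scn4b, Scn4a, Cacna2d1 and Cacnb2 are lowest in all 3 MI prednisone hearts, while Cacna1c is at similar levels in both MI groups and Hcn2 overlaps in every group.

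Both sodium channel genes were lower after infarction, and lowest in infarcted hearts that received prednisone. Scn4a measured 8.40, 9.21 and 9.35 TPM in sham vehicle hearts, 10.1, 8.19 and 7.91 in sham prednisone hearts, 6.00, 5.06 and 5.05 in MI vehicle hearts and 1.69, 1.05 and 2.59 in MI prednisone hearts. Every MI value was below every sham value, and every MI prednisone value was below every MI vehicle value. Scn4a fell by 0.65 ± 0.19 (SE) on the log2 scale after MI with vehicle (limma adjusted p = 0.0424), by 1.84 ± 0.19 after MI with prednisone (adjusted p = 0.00111) and by 1.23 ± 0.19 with prednisone in MI hearts (adjusted p = 0.00146).

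Scn4b encodes a beta subunit that sits beside the cardiac sodium channel pore and is known for its part in resurgent sodium current. Its values were 12.6, 15.1 and 13.6 TPM in sham vehicle hearts, 13.5, 11.7 and 11.2 in sham prednisone hearts, 8.31, 10.3 and 9.09 in MI vehicle hearts and 5.63, 3.08 and 6.74 in MI prednisone hearts. As with Scn4a, the 3 levels sham, MI vehicle and MI prednisone did not overlap. Scn4b fell by 1.14 ± 0.21 on the log2 scale after MI with prednisone (limma adjusted p = 0.00483) and by 0.78 ± 0.21 with prednisone in MI hearts (adjusted p = 0.0137). With vehicle, the difference between MI and sham of -0.53 ± 0.21 did not pass the test (adjusted p = 0.0834).

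Scn4a is the pore gene of skeletal muscle, so markers of that tissue were examined beside it. The 12 markers summed to 7.59 to 32.7 TPM in sham vehicle hearts, 5.33 to 12.6 in sham prednisone hearts, 5.03 to 20.6 in MI vehicle hearts and 10.1 to 12.3 in MI prednisone hearts. The fast myosin gene Myh4 reached at most 0.693 TPM and the myogenic factors Myod1 and Myog at most 0.121 and 0.0379 TPM. Other markers of the list were at levels near that of Scn4a in single libraries, with up to 12.4 TPM for Mylpf, 10.2 for Tnni2, 8.88 for Tnnt3 and 3.94 for Neb. Of the 12 markers, 5 were tested between MI prednisone and MI vehicle hearts and none was called in limma, with Neb at 0.80 (unadjusted p = 0.0325) and Pvalb at 0.63 (unadjusted p = 0.0210), while 2 of the 5 were called higher after median-ratio rescaling. That rescaling called 1887 of all 13158 genes higher and 1817 lower. The part of these markers in the Scn4a values was not tested.

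Among the L-type calcium channel subunits, the pore gene and its partners moved differently in the summed values. Cacna1c measured 25.9, 30.1 and 28.7 TPM in sham vehicle hearts, 29.9, 29.97 and 27.5 in sham prednisone hearts, 21.4, 24.0 and 18.6 in MI vehicle hearts and 21.02, 21.3 and 24.1 in MI prednisone hearts. All 6 MI values were below all 6 sham values, and the 2 MI groups overlapped. Cacna1c fell by 0.40 ± 0.12 on the log2 scale after MI with vehicle (limma adjusted p = 0.0436) and by 0.38 ± 0.12 after MI with prednisone (adjusted p = 0.0449), and the change with prednisone in MI hearts was 0.06 ± 0.12 (adjusted p = 0.704).

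Cacna2d1 encodes the alpha2delta subunit that is also the binding site of gabapentin. It measured 25.1, 28.8 and 26.7 TPM in sham vehicle hearts, 29.5, 31.6 and 29.4 in sham prednisone hearts, 24.4, 27.7 and 19.7 in MI vehicle hearts and 12.5, 9.25 and 14.1 in MI prednisone hearts. The MI prednisone values were apart from and below all 9 others. Cacna2d1 fell by 1.28 ± 0.16 on the log2 scale after MI with prednisone (limma adjusted p = 0.00124) and by 0.95 ± 0.16 with prednisone in MI hearts (adjusted p = 0.00187), and differed by -0.17 ± 0.16 after MI with vehicle (adjusted p = 0.380).

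Cacnb2 encodes the main beta subunit of the cardiac L-type channel. Its values were 16.2, 19.5 and 19.8 TPM in sham vehicle hearts, 19.6, 24.2 and 21.1 in sham prednisone hearts, 16.7, 17.9 and 12.9 in MI vehicle hearts and 8.17, 7.34 and 11.4 in MI prednisone hearts. Again the 3 MI prednisone values were the lowest of the 12. Cacnb2 fell by 1.201 ± 0.17 on the log2 scale after MI with prednisone (limma adjusted p = 0.00202) and by 0.76 ± 0.17 with prednisone in MI hearts (adjusted p = 0.00678), and differed by -0.22 ± 0.17 after MI with vehicle (adjusted p = 0.310).

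Cacna1g was the one channel gene of the 8 that rose with prednisone in MI hearts. It measured 3.67, 5.17 and 4.50 TPM in sham vehicle hearts, 5.05, 4.39 and 4.28 in sham prednisone hearts, 4.24, 2.63 and 3.08 in MI vehicle hearts and 5.21, 5.57 and 4.32 in MI prednisone hearts. The 2 MI groups did not overlap, although their nearest values, 4.24 and 4.32 TPM, were close. The MI prednisone values overlapped both sham groups, and the MI vehicle values overlapped sham vehicle but not sham prednisone. Its change with prednisone in MI hearts was 0.49 ± 0.17 on the log2 scale (limma adjusted p = 0.0413). The call was lost when any of MI vehicle replicates 2 and 3 or MI prednisone replicates 1 and 2 was left out, with changes of 0.38 to 0.47. It was also lost without a filter on low genes (adjusted p = 0.0722), with the most abundant transcript alone (0.151), in a fit of the 2 MI groups only (0.161) and when only its protein-coding transcripts were summed, with a change of -0.16 ± 0.13 (adjusted p = 0.345).

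Neither HCN gene passed the limma test in any comparison, with an unadjusted p under 0.05 for Hcn4 between the prednisone groups (0.0164) and for the interaction of Hcn2 (0.0499). Hcn2 measured 5.54, 6.66 and 7.82 TPM in sham vehicle hearts, 7.73, 9.29 and 8.80 in sham prednisone hearts, 7.02, 8.55 and 7.15 in MI vehicle hearts and 7.91, 5.43 and 6.73 in MI prednisone hearts. Hcn4 measured 1.89, 2.12 and 1.81 TPM in sham vehicle hearts, 2.06, 2.11 and 2.60 in sham prednisone hearts, 1.82, 1.47 and 1.47 in MI vehicle hearts and 1.005, 0.9998 and 1.97 in MI prednisone hearts. The Hcn2 values of all groups overlapped, and the Hcn4 values of MI prednisone hearts lay below those of sham prednisone hearts. That Hcn4 difference was -0.51 ± 0.18 on the log2 scale (limma adjusted p = 0.0780), and it passed the test when MI prednisone replicate 3 was left out (-0.70, adjusted p = 0.0143). Of 10 sinoatrial and conduction markers, the transcription factors Shox2 and Isl1 reached at most 1.63 and 1.31 TPM, and the list summed to 41.9 to 48.9 TPM in sham vehicle hearts, 39.8 to 47.0 in sham prednisone hearts, 52.5 to 59.9 in MI vehicle hearts and 38.3 to 44.3 in MI prednisone hearts. From sham to MI with vehicle the higher sum was mostly that of Smoc2 (mean 26.7 to 34.7 TPM) and Gjc1 (9.47 to 12.9). Cpne5 (1.74 to 1.03 TPM) and Cntn2 (1.58 to 1.37) had lower means. None of the 6 tested markers was called in limma in that comparison.

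Counted over the 8 genes, MI with vehicle lowered 2 and raised none, where 0.904% of all tested genes were lower and 15.1% higher. MI with prednisone lowered 5 and raised none, where 14.1% of all genes were lower and 2.73% higher. These comparisons share no library with each other, while both share libraries with the comparisons of prednisone and vehicle below. Prednisone in sham hearts changed none of the 8 in limma, with every adjusted p at 1, no unadjusted p under 0.05, and changes between -0.17 (Scn4b) and 0.33 (Hcn2). Of all genes, 0.114% were called either way there.

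Prednisone in MI hearts lowered 4 of the 8 and raised 1, where 34.9% of all tested genes were lower and 2.5% higher, so that a fall there was common among all genes. The median change of the 8 was -0.47 against -0.41 for all genes. After a median-ratio rescaling that brings the median of all genes near 0, Scn4a was still lower (-0.88, limma adjusted p = 0.0216) and Cacna1g still higher (0.84, adjusted p = 0.00924). Under that rescaling 1887 of all 13158 genes were called higher and 1817 lower. The changes of Scn4b, Cacna2d1 and Cacnb2 were then -0.37, -0.51 and -0.34 and did not pass the test (adjusted p = 0.286, 0.150 and 0.350). Against sham prednisone hearts, Scn4b, Scn4a, Cacna2d1 and Cacnb2 stayed lower under that rescaling, by -1.07, -1.79, -1.20 and -1.12 (adjusted p = 0.0130, 0.00228, 0.00874 and 0.0123), and Cacna1c did not pass (-0.29, adjusted p = 0.310). In that comparison the rescaling called 1422 of the 13158 genes higher and 1924 lower.

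The response to prednisone was compared between MI and sham hearts with the interaction term of the limma model. It was negative for Scn4a (-1.19 ± 0.27, adjusted p = 0.0144), Cacna2d1 (-1.11 ± 0.22, adjusted p = 0.0106) and Cacnb2 (-0.98 ± 0.24, adjusted p = 0.0200). Of all genes, 20.7% had a called negative interaction and 0.54% a called positive one, with a median of -0.48. After median-ratio rescaling the terms of these 3 genes were -0.76, -0.59 and -0.48 and did not pass the test (adjusted p = 0.170, 0.302 and 0.427).

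Leaving out single mice tested each of these calls. No shares over all genes are given for these fits. The falls of Scn4b, Scn4a, Cacna2d1 and Cacnb2 in MI prednisone hearts, against either other group, passed in all 6 such fits. Without MI vehicle replicate 3, the library that stood apart, prednisone in MI hearts still lowered these 4 genes and raised none, and MI with vehicle lowered none of the 8 in limma (3 at an unadjusted p under 0.05). The fall of Scn4a after MI with vehicle was lost in 5 of 6 fits, without each sham vehicle mouse and without MI vehicle replicates 2 and 3, with adjusted p up to 0.143. That of Cacna1c was lost in 4 of 6, without each sham vehicle mouse and without MI vehicle replicate 3, with adjusted p up to 0.146. The fall of Cacna1c after MI with prednisone was lost in 5 of 6, all but the fit without MI prednisone replicate 3, with adjusted p up to 0.150, and the interaction of Cacnb2 in 3 of 12, with adjusted p up to 0.0598 (without sham vehicle replicate 1, sham prednisone replicate 2 and MI prednisone replicate 1).

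**Figure D2:**
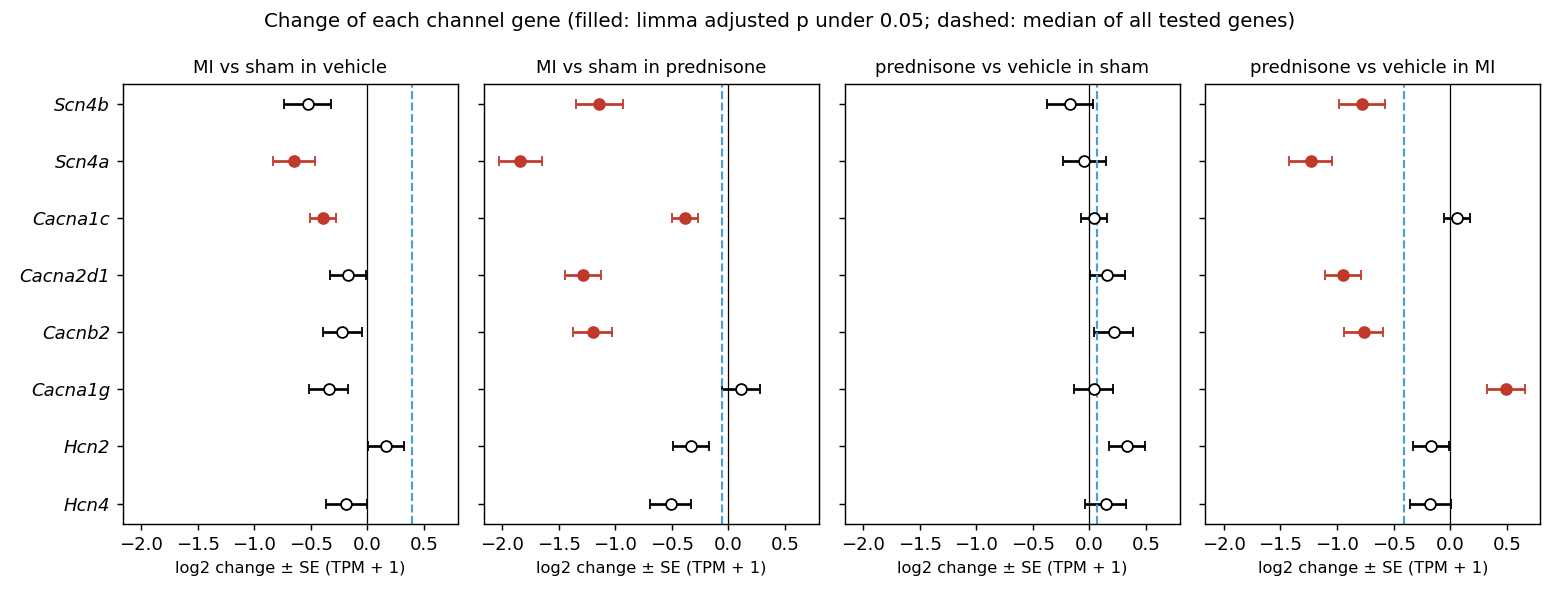
Change of each channel gene on the log2(TPM + 1) scale with its standard error in 4 comparisons, filled where the limma adjusted p was under 0.05, with the median change of all 13158 tested genes as a dashed line. In MI hearts the falls of Scn4b, Scn4a, Cacna2d1 and Cacnb2 with prednisone lie left of a median that is itself at -0.41, and no gene is filled in sham hearts.

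The transcripts behind the summed values changed in opposite directions in Cacna1c. Cacna1c-212, the most abundant coding transcript, measured 10.8, 12.7 and 12.04 TPM in sham vehicle hearts, 12.7, 14.5 and 13.3 in sham prednisone hearts, 9.22, 9.53 and 5.81 in MI vehicle hearts and 2.10, 1.63 and 4.62 in MI prednisone hearts. Cacna1c-223 measured 1.62, 1.44 and 0.563 TPM in sham vehicle hearts, 0.995, 0.228 and 0.556 in sham prednisone hearts, 0, 0 and 0.287 in MI vehicle hearts and 13.4, 11.7 and 7.98 in MI prednisone hearts. The MI prednisone values were the lowest of the 12 for the coding transcript and the highest of the 12 for the non-coding one, with no overlap in either case.

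With prednisone in MI hearts, Cacna1c-212 fell by 1.33 ± 0.26 on the log2 scale (limma adjusted p = 0.00366) and the coding transcript Cacna1c-226 fell by 1.17 ± 0.27 (adjusted p = 0.00754), while Cacna1c-223 rose by 3.44 ± 0.27 (adjusted p = 3.33e-05). Cacna1c-207, which has the longest 3′ end of the 4, changed by 0.03 ± 0.18 (adjusted p = 0.905). Summed over coding transcripts, Cacna1c measured 22.6, 25.7 and 25.1 TPM in sham vehicle hearts, 27.0, 28.9 and 26.2 in sham prednisone hearts, 20.0, 22.3 and 14.8 in MI vehicle hearts and 6.95, 7.22 and 14.5 in MI prednisone hearts. The groups of MI hearts did not overlap, although 14.8 and 14.5 TPM were close. In that sum Cacna1c fell with prednisone in MI hearts by 0.98 ± 0.23 (adjusted p = 0.00543), where the sum over all transcripts had changed by 0.06. Coding transcripts made up 80.0% to 96.3% of the gene's TPM in the other 9 libraries and 33.0%, 33.8% and 59.9% in MI prednisone hearts.

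**Figure D3:**
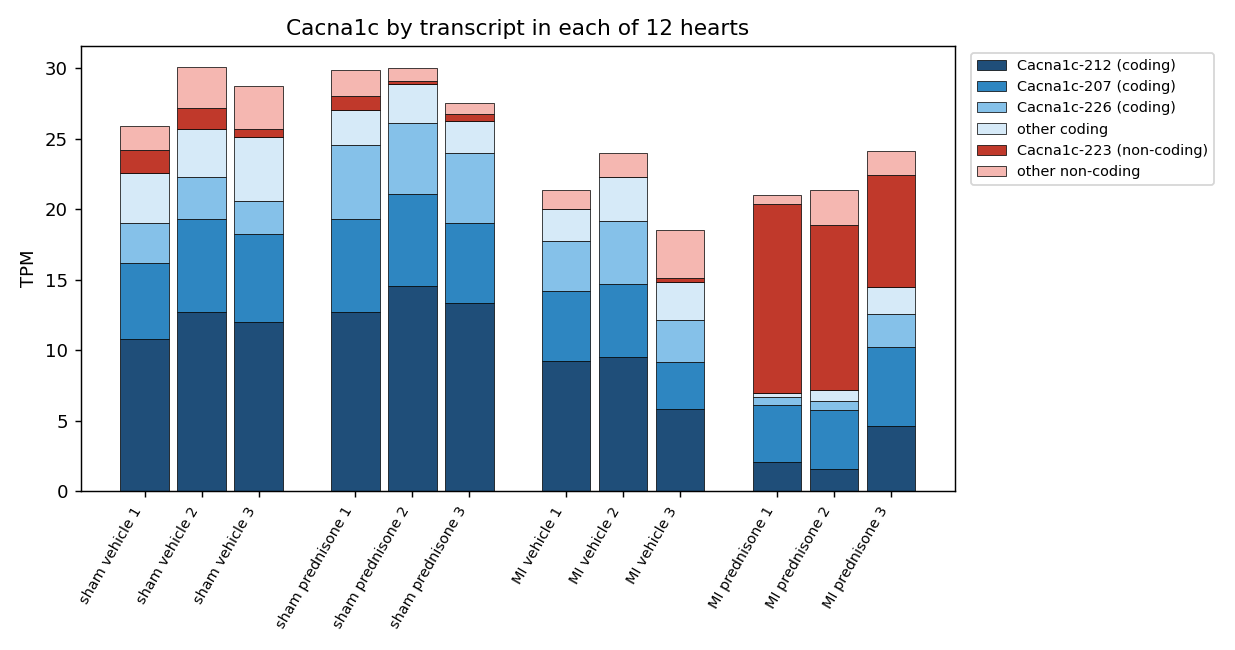
TPM of Cacna1c in each of the 12 mice, stacked by transcript, coding transcripts in blue and non-coding ones in red. The stacks of the 2 MI groups have similar heights, and Cacna1c-223 makes up 7.98 to 13.4 TPM of them in MI prednisone hearts and at most 0.287 TPM in MI vehicle hearts.

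Cacnb2 also changed unevenly between its transcripts. Cacnb2-214 measured 5.79, 8.03 and 8.06 TPM in sham vehicle hearts, 8.15, 8.90 and 8.56 in sham prednisone hearts, 7.54, 6.09 and 6.08 in MI vehicle, and was listed at 0 in MI prednisone replicates 1 and 2 and at 2.78 in replicate 3. Cacnb2-203 measured 6.53, 7.49 and 7.50 TPM in sham vehicle hearts, 6.18, 8.26 and 8.03 in sham prednisone hearts, 5.65, 6.09 and 5.13 in MI vehicle hearts and 7.002, 5.76 and 6.70 in MI prednisone hearts. The transcript from the downstream start was thus lowest in MI prednisone hearts, and that from the upstream start overlapped between the MI groups. These transcripts also differ at the 3′ end, where Cacnb2-203 runs to chr2:14987908 and Cacnb2-214 only to chr2:14986211. A difference by start and a difference by 3′ end cannot be told apart here. Cacnb2-214 fell by 2.28 ± 0.41 on the log2 scale with prednisone in MI hearts (limma adjusted p = 0.00251), and Cacnb2-203 changed by 0.18 ± 0.15 (adjusted p = 0.374).

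The bases before the start of Cacnb2-214 and of Cacna2d1 are shown because these rows were low in MI prednisone hearts. Windows of 250 bases before RefSeq starts (GRCm38.p6) were found for 7 of the 8 genes, 10 windows in all. They were searched on both strands for GGGCGG, a GC box bound by Sp factors, AGAACA, one arm of the site that steroid receptors bind, CAGCTG and CACGTG, both E boxes. These motifs occurred in 32.7%, 16.1%, 13.001% and 6.02% of all 32851 windows of that length. Motif letters on either strand are in capitals, and the Cacnb2 window is cut where an exon of another Cacnb2 transcript begins.
Cacnb2 downstream start, chr2:14823842-14824025, plus strand: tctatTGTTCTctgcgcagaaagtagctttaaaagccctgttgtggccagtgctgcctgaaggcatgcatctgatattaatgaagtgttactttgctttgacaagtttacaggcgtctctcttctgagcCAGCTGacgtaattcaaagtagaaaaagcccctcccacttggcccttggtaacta
Cacna2d1, chr5:15934441-15934690, plus strand: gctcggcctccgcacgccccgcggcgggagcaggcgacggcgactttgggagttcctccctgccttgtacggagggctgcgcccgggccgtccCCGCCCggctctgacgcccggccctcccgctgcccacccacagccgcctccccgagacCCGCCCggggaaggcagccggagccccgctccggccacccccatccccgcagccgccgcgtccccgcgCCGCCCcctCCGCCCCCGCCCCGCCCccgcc
The Cacnb2 window held 1 AGAACA and 1 CAGCTG match, and the Cacna2d1 window held 6 GGGCGG matches, counted on either strand. No window of the 8 genes held CACGTG. A match is a run of letters and no measure of binding.

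Of the 77 transcript rows of the 8 genes, 26 passed the filter on low values. With prednisone in MI hearts 8 of these were lower and 1 higher, where 27.1% of all 27769 tested transcripts were lower and 5.92% higher. After MI with prednisone 10 were lower and 1 higher, where 15.6% of all were lower and 6.75% higher. The interaction was called negative for 5 of the 26 and positive for 1, where 15.8% of all transcripts had a negative and 2.87% a positive call. After median-ratio rescaling, 5 transcripts were lower and 1 higher with prednisone in MI hearts, and 3 negative interactions and 1 positive one were called. The shares over all transcripts are of the fit without that rescaling. Among all 13158 genes, the rescaling called 1887 higher and 1817 lower with prednisone in MI hearts, and 577 negative and 564 positive interactions. In the remaining single comparisons none was called in limma, with 6 at an unadjusted p under 0.05 for MI with vehicle and 4 for prednisone in sham hearts. Scn4a-202, a non-coding transcript of 443 bases on the 5′ side of the coding one (chr11:106349455-106353288, minus strand), measured 2.19, 1.97 and 2.29 TPM in MI vehicle hearts and 0.288, 0 and 0.561 in MI prednisone hearts. It fell by 1.32 ± 0.21 on the log2 scale (limma adjusted p = 0.00120), and the coding transcript Scn4a-201 fell by 0.77 ± 0.18 (adjusted p = 0.00840), a call that was lost after rescaling (-0.49, adjusted p = 0.112), as was that of Scn4b-201 (-0.42, adjusted p = 0.238). Cacna2d1-206 was listed at 3.68, 1.21 and 3.96 TPM in MI vehicle hearts and at 0 in all 3 MI prednisone hearts, while Cacna2d1-202, with the same start and a longer 3′ end, measured 10.98, 9.91 and 5.41 against 7.26, 3.84 and 7.33 TPM.

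**Figure D4:**
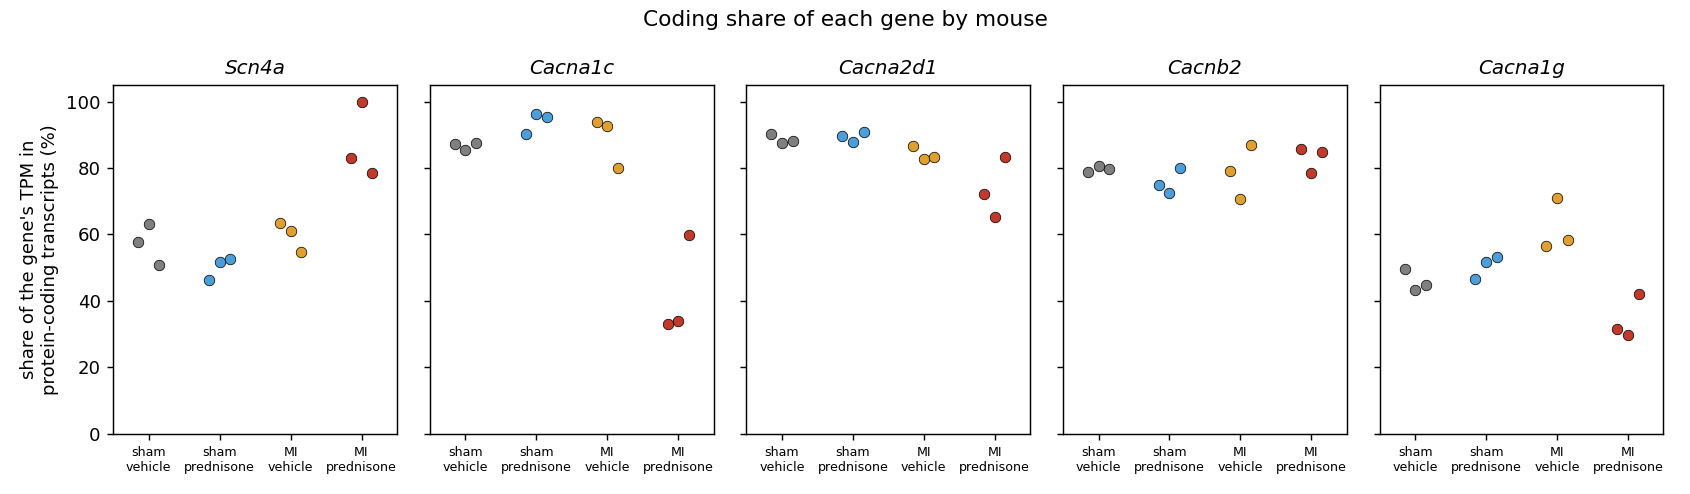
Share of each gene's TPM carried by its protein-coding transcripts, in percent, for the 5 channel genes with non-coding transcripts, one point per mouse. In MI prednisone hearts the share of Cacna1c was 33.0% to 59.9% and that of Cacna1g 29.7% to 42.1%, below the other 9 libraries, and the share of Scn4a was 78.4% to 100%, above them.

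Summed over coding transcripts alone, prednisone in MI hearts lowered 5 of the 8 genes and raised none, where 45.3% of all 10576 such sums were lower. The 5 were Scn4b, Scn4a, Cacna1c, Cacna2d1 and Cacnb2, with changes of -0.78, -0.77, -0.98, -1.12 and -0.68 on the log2 scale (limma adjusted p from 0.00121 to 0.00943), against a median of -0.46 for all sums. After MI with prednisone the same 5 genes were lower, by 1.06 (Cacnb2) to 1.53 (Cacna2d1), where 18.5% of all sums were lower and their median was -0.12. The ratios between L-type subunits depended on which transcripts were summed. Cacna2d1 to Cacna1c averaged 1.12 ± 0.051 (SD, n = 3) in MI vehicle hearts and 0.538 ± 0.090 in MI prednisone hearts over all transcripts, without overlap, and 1.06 ± 0.039 and 0.982 ± 0.28 over coding transcripts, with overlap. Cacnb2 to Cacna1c averaged 0.740 ± 0.043 and 0.401 ± 0.064 over all transcripts, and 0.660 ± 0.094 and 0.824 ± 0.17 over coding ones, which turned the direction. The coding values overlapped, and an exact permutation test of 3 against 3 mice gives a two-sided p of 0.1 at the lowest, which each pair without overlap reached.

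Position along the gene moved with these transcript changes in the whole table. Genes were divided into 3 equal stretches, and non-coding transcripts that span under 50% of their gene were placed by their midpoint. With prednisone in MI hearts their median change was -0.34 on the log2 scale in the 5′ stretch (952 transcripts), -0.11 in the middle (648) and 0.40 in the 3′ stretch (2332). In sham hearts it was 0.09, 0.07 and -0.01. Cacna1c-223 lies in the 3′ stretch and Scn4a-202 in the 5′ stretch. The 2 tested transcripts of Cacna1g, both non-coding, also lie in the 3′ stretch. So does Cacna1c-211, with a change of 0.45 with prednisone in MI hearts (limma adjusted p = 0.199). Cacnb2-211 and Cacnb2-215, also non-coding and in the 3′ stretch, went the other way, by -0.79 and -0.69 (adjusted p = 0.0864 and 0.0661). In the 5′ stretch, Cacna1c-218 changed by -0.89 (adjusted p = 0.153). Gene medians with prednisone in MI hearts also went with transcript length, from -0.05 below 1000 bases to -0.69 at 8000 bases or more, and the mean transcript length of the 8 genes ran from 2782 (Cacnb2) to 7597 bases (Cacna1c). After a correction for length, Scn4a changed by -0.63 (adjusted p = 0.0772), Scn4b, Cacna2d1 and Cacnb2 by -0.12, -0.28 and -0.28 (adjusted p = 0.723, 0.385 and 0.456), Cacna1g by 1.11 (adjusted p = 0.00725) and Cacna1c by 0.76 (adjusted p = 0.0146) with prednisone in MI hearts. That correction called 1041 of 11894 genes higher and 915 lower in this comparison. Over coding transcripts without the correction, Cacna1g changed by -0.16 (limma adjusted p = 0.345) and Cacna1c by -0.98 (adjusted p = 0.00543). Whether coverage along transcripts differed between the libraries was not tested, since the table holds no reads.

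**Figure D5:**
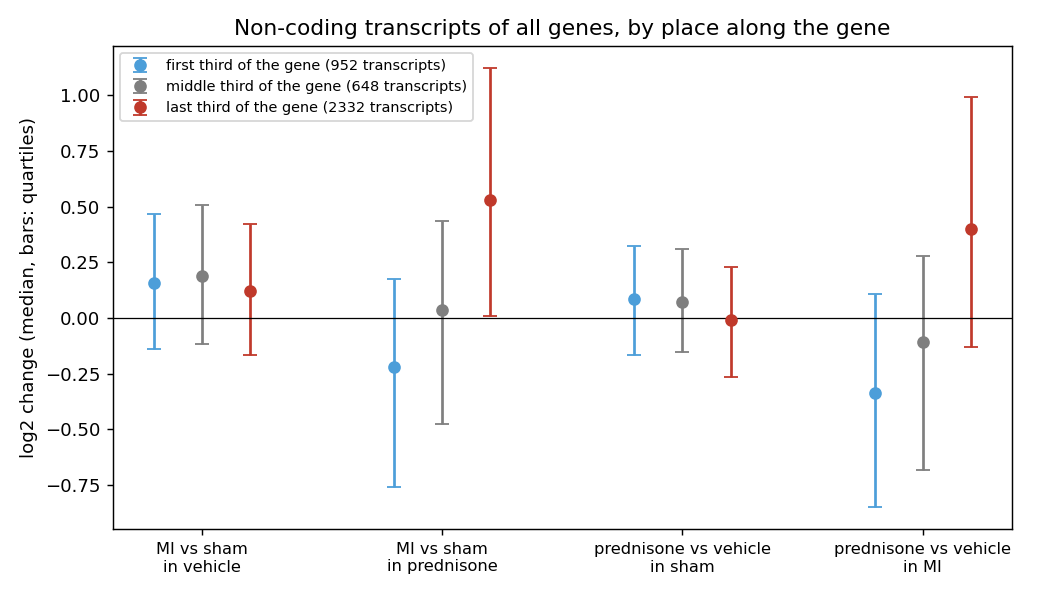
Median log2 change, with quartiles as bars, of non-coding transcripts that span under 50% of their gene, over the whole table, by the stretch of the gene in which they lie, in 4 comparisons. In both comparisons that involve MI prednisone hearts the medians rise from the 5′ to the 3′ stretch, from -0.34 to 0.40 against MI vehicle and from -0.22 to 0.53 against sham prednisone.

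Most other genes of the channel families were near silent in these hearts, while a few were well expressed. In sham vehicle hearts the 12 other sodium channel genes summed to 48.1 to 60.9 TPM and the 22 other calcium channel genes to 21.2 to 26.4 TPM. Of 36 other sodium, calcium and HCN channel genes, 23 did not pass the filter, with at most 0.982 TPM (Cacna1b), among them both other HCN genes, and 13 were tested. After MI with vehicle 2 of 4 sodium channel genes rose, among them Scn7a, a sodium-sensing relative of the family, by 0.57 ± 0.17 on the log2 scale (limma adjusted p = 0.0471). Of 9 calcium channel genes, the beta subunit genes Cacnb3 and Cacnb1 rose by 1.17 ± 0.26 and 0.54 ± 0.17 (adjusted p = 0.0196 and 0.0494), and Cacng6 fell by 0.70 (adjusted p = 0.0313). Without MI vehicle replicate 3, 1 of 4 sodium and 1 of 9 calcium channel genes were higher and none lower, and no share over all genes is given for that fit. After median-ratio rescaling 1 of 4 sodium channel genes was higher, and 1 of 9 calcium channel genes was higher and 2 lower. Of all genes, 15.1% were higher and 0.904% lower in this comparison, and 426 and 424 of 13158 after the rescaling.

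With prednisone in MI hearts 3 of the 4 tested sodium channel genes fell, among them Scn7a by 0.56, and Cacnb3 and Cacng7 fell by 0.96 and 0.46 (2 of 9). The shares over all genes were 34.9% lower and 2.5% higher. Without MI vehicle replicate 3 the counts were 1 of 4 lower and, for calcium channel genes, 2 of 9 lower and 1 higher. After median-ratio rescaling none of the 4 was called, and 2 of the 9 were higher and 1 lower. That rescaling called 1887 of all 13158 genes higher and 1817 lower.

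Among 25 partners and modulators of these channels, 20 were tested, and prednisone in MI hearts lowered 10 and raised 1. The shares over all tested genes were 34.9% lower and 2.5% higher. Among those that fell were Fgf13, which binds the sodium channel tail and slows its inactivation (-1.08), the calcium/calmodulin kinase gene Camk2d (-0.94), the anchoring protein Ank3 (-0.84), the calmodulin gene Calm2 (-0.75) and Gpd1l (-0.69), a regulator of sodium current (limma adjusted p from 0.00375 to 0.0119). Rangrf, which carries the sodium channel pore to the membrane, rose by 0.51 (adjusted p = 0.0106). Fgf13 measured 38.1, 34.7 and 28.0 TPM in MI vehicle hearts and 14.9, 10.2 and 22.9 in MI prednisone hearts. After median-ratio rescaling 5 of the 20 were higher and 2 lower, where 1887 of all 13158 genes were higher and 1817 lower. After MI with prednisone 5 were lower (Fgf13, Camk2d, Ank3, Gpd1l and Akap7, by 0.60 to 1.38) and none higher. The shares over all genes there were 14.1% lower and 2.73% higher.

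The 8 genes did not all vary alike over the 12 samples, which include both the group differences and the depth and composition of the same libraries. Cacna2d1 and Cacnb2 had the highest correlation of log2 values (Pearson r = 0.98, n = 12), followed by Scn4b and Scn4a (0.96) and Scn4a and Cacna2d1 (0.96). Cacna1g had coefficients between -0.33 and 0.28 with the 7 others, and Hcn2 between -0.22 and 0.54. Outside the channel lists, among the 8093 genes averaging 5 TPM or more, the 2 genes most like Scn4a were Ppm1k (0.99) and Fyco1 (0.98), and those most like Scn4b were Ppp1r3a (0.96) and Chrm2 (0.96). Those most like Cacna2d1 were Ptpn3 (0.99) and Vldlr (0.99), and the one most like Cacnb2 was Akap6 (0.99). For the remaining 4 they were Hfe2 (0.93) and Asb14 (0.92) for Cacna1c, Srpk3 (0.86) and Smim20 (0.85) for Cacna1g, Egln3 (0.88) and Frmd5 (0.84) for Hcn2, and Cs (0.96) and Pdk2 (0.94) for Hcn4.

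Markers of other cell types moved with the groups, and their part in the channel values was not tested. With prednisone in MI hearts 34.9% of all tested genes were lower and 2.5% higher. After MI with vehicle 15.1% were higher and 0.904% lower. Median-ratio rescaling called 1887 of 13158 genes higher and 1817 lower with prednisone in MI hearts. For MI with vehicle it called 426 higher and 424 lower. Of 8 atrial markers, 4 were higher with prednisone in MI hearts and none lower, and the list summed to 901 to 2598 TPM in sham vehicle hearts, 2073 to 2803 in sham prednisone hearts, 2883 to 4214 in MI vehicle hearts and 4467 to 6324 in MI prednisone hearts. From sham to MI with vehicle most of the higher sum was that of the natriuretic peptide gene Nppa (mean 904 to 2706 TPM), while Myl7 (445 to 308 TPM), Myl4 (341 to 244), Sln (48.0 to 31.9) and Stard10 (47.2 to 35.6) had lower means that did not pass the test. The atrial myosin light chain Myl7 ranged from 64.0 to 450 TPM in MI vehicle and from 793 to 1036 in MI prednisone hearts. Of 7 fibroblast markers, all 7 were higher after MI with vehicle and 6 lower with prednisone in MI hearts, or 3 and 5 after median-ratio rescaling. Their sum was 340 to 443 TPM in sham vehicle hearts, 362 to 433 in sham prednisone hearts, 748 to 989 in MI vehicle hearts and 285 to 501 in MI prednisone hearts. Of 6 macrophage markers, 5 were higher after MI with vehicle and 5 lower with prednisone in MI hearts (3 and 3 after that rescaling), with sums of 224 to 329, 264 to 348, 515 to 1203 and 253 to 478 TPM in the same order. Of 8 ventricular muscle markers, 4 were higher with prednisone in MI hearts and none lower, among them Myl2 (0.59) and Tnni3 (0.73). Actc1 (-0.23, adjusted p = 0.175) and Mybpc3 (-0.31, adjusted p = 0.0572) had negative changes that did not pass the limma test. The ventricular counts were 4 higher and 1 lower over coding transcripts, 5 and 0 after median-ratio rescaling, and 2 and 1 without MI vehicle replicate 3. No share over all genes is given for the fit without that mouse.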

How the data were processed

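Stranded mRNA libraries from 12 hearts were sequenced, per the labels' protocols. The deposited values are TPM per transcript, which the authors scaled to the same total in every library. The submitters' processing notes name Trimmomatic, HISAT2, kallisto and mm10, without role or version. TPM holds no read depth, so the number of reads is unknown, precision rests on 3 mice a group, and transcripts that share sequence, such as those of Cacna1c, are split by estimation. A rise of abundant RNAs lowers all other TPM.

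Rows were summed by gene symbol, and the 13158 genes that reached 1 TPM in 3 or more samples were transformed to log2(TPM + 1), which understates changes of low genes. Linear models with a mean per group over 12 samples were fitted in limma 3.58.1 (R 4.3.3, trend), with Benjamini-Hochberg adjustment over all genes and calls at an adjusted p under 0.05. The fit was tested on simulated data with known changes. Transcript rows and coding sums were tested likewise. Positions and lengths came from GENCODE M21, matched by versioned identifier (94.7% of rows), and promoter windows from RefSeq. Figures used matplotlib 3.10.9 in python 3.11.15.

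Samples were grouped by their titles, and the mouse numbers in them belong to different animals. The members and lists were chosen with earlier results of these data known. Named were all 8 members, their transcripts with a mean of at least 1 TPM, up to 6 called genes per list and comparison, marker genes that describe levels, and the 2 genes most like each member. Alternatives were median-ratio rescaling, no filter, no trend, a pseudocount of 0.1, the most abundant transcript, the replicate block, leaving out rows of mitochondrial RNAs, their nuclear copies and globins, a length correction (loess, span 0.5), 2-group fits and leaving out each mouse. Coding sums, rows of known length and ratios over coding transcripts were added after seeing the data. Some listed genes, and a gene like a member, are counted but not reported here by name.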

Additional observations from a re-analysis of the deposited data

Results flagged for a closer look

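The prednisone effect differed between infarcted and sham hearts by the interaction term of the limma model for 3 of the 8 genes: Scn4a (-1.19 on the log2 scale), Cacna2d1 (-1.11) and Cacnb2 (-0.98). It also differed for 6 of their 26 tested transcripts, where 15.8% of all 27769 tested transcripts had a called negative and 2.87% a called positive interaction. Scn4a-202 had an interaction of -1.46, Cacna1c-212 of -1.51, Cacna1c-226 of -1.89, Cacnb2-214 of -2.49 and Cacna2d1-206 of -3.08, while that of Cacna1c-223 was positive at 3.90. The terms of Cacna2d1-206, Cacnb2-214, Cacna1c-223 and Scn4a-202 rest in part on libraries listed at 0 and so depend on the pseudocount of 1. For Cacna1c-223 these are MI vehicle hearts, and for the other transcripts MI prednisone hearts. For comparison, the median interaction of all genes was -0.48. After median-ratio rescaling none of the 3 genes was called (2 of the 8 had an unadjusted p under 0.05 in limma), and the terms of Cacna1c-212 (-1.11, limma adjusted p = 0.140) and Cacnb2-214 (-2.14, adjusted p = 0.0541) lost their calls. That rescaling called 577 negative and 564 positive interactions among all 13158 genes.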

How the results depend on the processing

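For MI against sham with vehicle, the number of the 8 genes called was 2. It was 0 without a filter, with the most abundant transcript of each gene, with the replicate block, with a 2-group fit and with the length correction plus block (3, 3, 3, 3 and 7 at an unadjusted p under 0.05 in limma), and 1 without the trend, with a pseudocount of 0.1, without mitochondrial, nuclear-copy and globin rows and over coding transcripts. Calls over all genes also became fewer in the settings with 0. The main fit called 1981 of 13158 genes higher and 119 lower. The 2-group fit called 2 of 13158, the length correction plus block 70 of 11894 and the block alone 1056 of 13158. Without a filter 1068 of 23629 were called, and with the most abundant transcript 1753 of 12422. For MI against sham with prednisone the number was 5, with 3 for the most abundant transcript (Scn4b, Scn4a and Cacna1c) and 2 for length correction plus block (Scn4a and Cacna2d1). Over all genes, 359 of 13158 were higher and 1854 lower in the main fit of that comparison. The most abundant transcript gave 351 and 1910 of 12422, and the length correction plus block 346 and 596 of 11894. For prednisone in MI hearts the 4 falls and 1 rise gave way to 2 calls after median-ratio rescaling (Scn4a lower, Cacna1g higher), 2 after length correction with or without the block (Cacna1g and Cacna1c, both higher, with none of the 4 falls), 2 in a 2-group fit (Scn4a and Cacna2d1, lower) and 3 with the most abundant transcript (Scn4b, Scn4a and Cacna1c, lower). The 2-group fit of MI hearts called 31 of all 13158 genes higher and 777 lower, and the rescaling 1887 and 1817. The length correction called 1041 of 11894 higher and 915 lower, or 696 and 672 with the block. With the most abundant transcript 336 of 12422 were higher and 4554 lower. Cacna1g also lost its call with the block (adjusted p = 0.0631). The number of interactions called was 3, with 0 after median-ratio rescaling and after length correction with or without the block (2 each at an unadjusted p under 0.05), 1 with the most abundant transcript (Cacna1c, none of the 3) and 1 without mitochondrial rows (Scn4a). The number of transcript interactions was 6, and 3 without a filter. The cause was not tested. Leaving out single mice gave 0 to 3, 4 to 6, 0, 4 to 5 and 2 to 3 genes called in the 5 comparisons, in the order MI with vehicle, MI with prednisone, prednisone in sham, prednisone in MI and interaction, and 0, 11 to 12, 0, 7 to 10 and 5 to 8 transcripts. These counts have no shares over all genes or transcripts beside them. Equal mouse numbers belong to different animals, and whether they share a batch is not given in the sources used here. Deviations of same-numbered mice from their group means correlated from -0.58 to 0.14. That cannot settle the question, since the deviations of the 3 mice in a group are tied to each other.

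Several values that changed sign were near 0, while others had been called in the main fit. Among those called were Cacnb2 (-0.76) and Cacna1g (0.49) for prednisone in MI hearts. Cacna1c for MI with prednisone (-0.38) and the interaction of Cacnb2 (-0.98) were also among them. Median-ratio rescaling turned Hcn2 to -0.23 for MI with vehicle and Hcn2 and Hcn4 to 0.24 and 0.085 for prednisone in MI hearts, and leaving out mitochondrial rows turned Hcn2 to -0.046 for MI with vehicle. Length correction, equally with and without the block, gave Hcn2 -0.26 for MI with vehicle, Cacna1c 0.10 for MI with prednisone, Hcn2 0.36 and Hcn4 0.51 for prednisone in MI hearts, and interactions of 0.15 for Scn4b, 0.12 for Hcn2 and 0.48 for Hcn4. With the most abundant transcript alone, Cacna1c was -1.33 and Cacnb2 0.18 for prednisone in MI hearts, with interactions of -1.51 and 0.13. Over coding transcripts, Cacna1c was -0.98 and Cacna1g -0.16 for prednisone in MI hearts, with interactions of -1.14 and -0.28, Cacna1g was -0.29 for MI with prednisone, and the log2 ratio of Cacnb2 to Cacna1c was 0.45 for MI with prednisone and 0.31 for prednisone in MI hearts. Leaving out 1 mouse turned Cacna1c for prednisone in MI hearts (-0.032 to 0.14 over 6 fits) and its interaction (-0.077 to 0.10 over 12), and, for prednisone in MI hearts, the log2 ratio of Hcn4 to Hcn2 (-0.45 to 0.15). Of the other single-gene values under other settings, 291 kept direction and side of the threshold, 55 lost and 3 gained a call.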
